A study of Homo sapiens with 61 samples.

Results

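The comparison asked what the kinase DLK (gene MAP3K12) contributed to the RNA response of human neurons to vincristine when its relative LZK (gene MAP3K13) was already missing. It was measured as a difference of differences: the vincristine effect in neurons lacking both kinases (double KO) minus the vincristine effect in neurons lacking LZK (LZK KO). A value below 0 therefore means that a gene was raised less, or lowered more, once DLK was gone as well. All expressed genes entered, which were 16956 of the 58440 gene identifiers in the table, and 16 of the 61 libraries of the series were fitted.

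The cells came from WTC11, a widely used human iPSC line (induced pluripotent stem cells), turned into cortical-type neurons by a doxycycline-driven NGN2 cassette that every line carried. The 4 groups were LZK KO and DLK LZK double KO, each with 4 untreated libraries (DMSO vehicle) and 4 libraries given 5 nM vincristine for 16 hours from day 14. Vincristine binds tubulin and destabilises microtubules. Both lines thus lacked LZK, and the comparison held no cells with LZK. The labels do not say whether each knockout line is a clone or a pool, so differences between the lines that have nothing to do with DLK cannot be told apart from the loss of DLK. WT and DLK KO neurons of the same experiment, and neurons of a second experiment that carried guide RNAs (gRNAs) for ATF2, for JUN or with a scrambled sequence, are used below only for comparison.

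DLK and LZK are closely related mixed-lineage kinases at the top of a stress cascade in neurons. They activate the kinases MAP2K4 and MAP2K7, which activate the c-Jun N-terminal kinases (JNKs), and JNKs phosphorylate transcription factors such as JUN and ATF2. In neurons the cascade is known for responding to axon injury and to damaged microtubules, and for driving either regeneration or cell death.

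Total counts in the 16 libraries ran from 8.41 to 13.7 M (M, mega), with a median of 10.1 M. The summed level of 10 neuronal markers was 13200 to 17000 CPM (counts scaled with TMM factors to a common library total), so neuronal RNA was present in every library as labelled. The summed level of 6 pluripotency markers was 13.4 to 18.8 CPM in LZK KO and 53.3 to 61.9 CPM in double KO, and that of 5 peripheral neuron markers was 114 to 165 and 367 to 395 CPM. The summed level of 6 cell division markers was 94.6 to 105 CPM untreated and 115 to 141 CPM with vincristine in LZK KO, and 38.4 to 45.8 CPM and 51.0 to 55.2 CPM in double KO. It was thus higher with vincristine in both lines, with the groups apart. Markers of astrocytes (1.68 to 6.11 CPM) and inhibitory neurons (2.71 to 10.6 CPM) were near 0. The filter on low counts left 10 of 10 neuronal, 3 of 6 pluripotency, 6 of 6 cell division, 4 of 5 peripheral neuron, 2 of 5 astrocyte and 3 of 3 inhibitory neuron markers to test. Of these, 0 were called for the difference by edgeR or DESeq2, and 3 of the neuronal markers and 0 of the others were under an unadjusted p of 0.05. Whether these markers had a part in the results was not tested. The library of LZK KO with vincristine, replicate 4, deviated most from its group, with an SD of log2 deviations of 0.356 against 0.191 to 0.298 elsewhere. Leaving out the untreated LZK KO library of replicate 3 moved the number of called genes most. The count of all called genes, and the counts of some lists, are therefore also given without these libraries. Counts of the other lists may change as well. Since the labels do not say whether replicates were separate differentiations, the p-values measure the spread between these cultures only.

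MAP3K12 was read in the 4 untreated LZK KO libraries at 73.1, 74.0, 81.1 and 71.0 CPM and in the 4 untreated double KO libraries at 21.5, 17.5, 17.3 and 21.3 CPM. The groups did not overlap, and the log2 difference between the untreated lines was -1.95. On the scale of all 32 libraries of the experiment, its untreated mean was 19.7 ± 2.42 CPM in double KO (SD, n = 4) and 26.3 ± 2.48 in DLK KO, against 76.1 ± 4.11 in LZK KO and 91.0 ± 2.23 in WT. MAP3K13 stood at 29.6 ± 2.00 CPM untreated in double KO and 31.9 ± 1.96 in LZK KO, against 106 ± 3.43 in DLK KO and 99.1 ± 1.93 in WT. Both targeted genes were thus low where the labels say so, and the untreated lines compared differed by -0.10 on the log2 scale for MAP3K13 (adjusted p = 0.328). With vincristine MAP3K13 was called lower in double KO than in LZK KO, by -0.26 (adjusted p = 0.00769). Neither targeted gene was itself called for the difference (MAP3K12 -0.13 ± 0.13, SE, adjusted p = 0.785; MAP3K13 -0.16 ± 0.11, adjusted p = 0.644).

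The vincristine effect was called for more genes in LZK KO than in double KO. In LZK KO, 707 of 16956 genes (4.17%) were called for the vincristine effect, 437 higher (2.58%) and 270 lower (1.59%), by the quasi-likelihood test of edgeR at an adjusted p under 0.05. In double KO 11 genes were called (0.0649%), all 11 lower. At an unadjusted p under 0.05 the double KO count was 1218, DESeq2 called 18 genes there, 8 higher and 10 lower, and voom with quality weights called 112, 42 higher and 70 lower. The difference between the lines was called for 214 genes (1.26%), of which 184 (1.09%) were lower and 30 (0.177%) higher. At least a 2-fold difference was seen in 48 of them. Without the untreated LZK KO replicate 3 the count was 455 (322 lower, 133 higher), without LZK KO vincristine replicate 4 it was 208 (171 lower, 37 higher), and without both it was 453 (311 lower, 142 higher).

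The 184 genes called lower had a median log2 effect of 0.61 in LZK KO and of -0.08 in double KO, and 180 of them had an effect above 0 in LZK KO. These medians come from the libraries that chose the genes and describe them only. Of the 184, 177 were protein coding. The 30 genes called higher had a median effect of -0.41 in LZK KO and of 0.13 in double KO. The lines also differed before treatment, since 7183 genes (42.4%) were called between untreated double KO and untreated LZK KO. With vincristine, 7302 (43.1%) were called. A difference in response can therefore start from unequal untreated levels. These are given beside many of the genes below, and genes without them need not have started level.

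**Figure D1:**
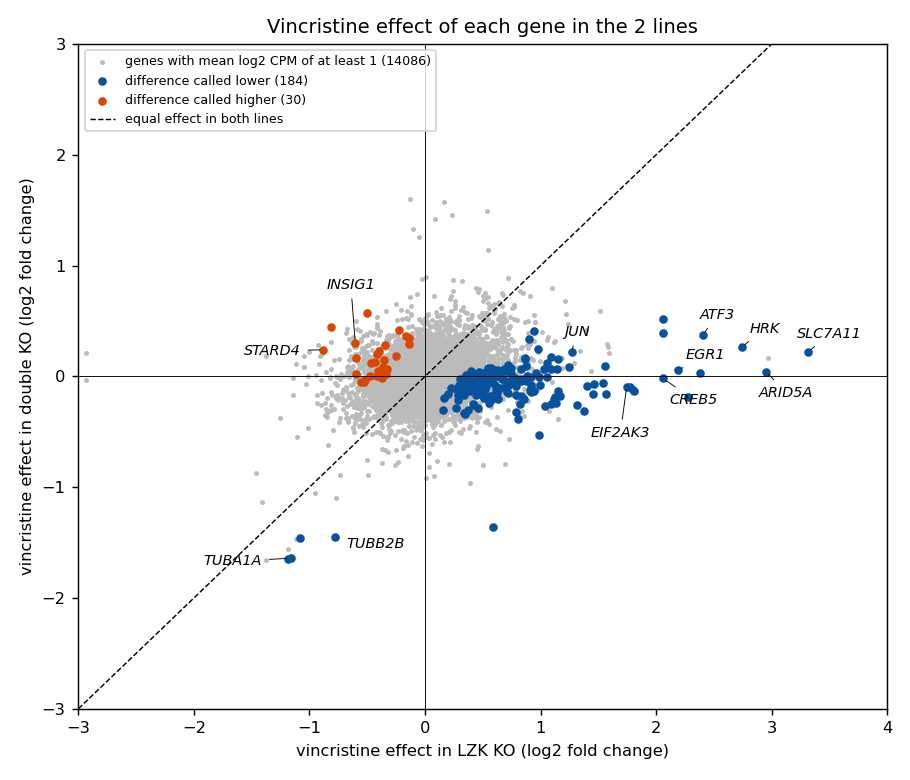
Vincristine effect (log2 fold change) of each gene in LZK KO (x) and in double KO (y), 4 libraries per group. Grey points are the 14086 genes with a mean log2 CPM of at least 1, blue points the 184 genes called lower, orange points the 30 called higher, and the dashed line marks equal effects; 2 grey points lie beyond the axes. Most blue points lie to the right of 0 and near 0 on the y axis, while the tubulin genes lie below the line at the lower left.

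The 15 lowest differences included those of the transporter SLC7A11, the cell death gene HRK, the stress kinase EIF2AK3 and the transcription factors EGR1, ATF3, CREB5 and ERF. SLC7A11 (ENSG00000151012.13, chromosome 4, 138164097 to 138242349, GRCh38), the cystine-glutamate exchanger that supplies cystine for glutathione, had the lowest among called genes with a mean log2 CPM of at least 1. It was read at 0.894, 0.713, 1.10 and 1.26 CPM in untreated LZK KO and at 7.69, 13.1, 12.2 and 6.98 CPM with vincristine. Double KO libraries read 1.23, 1.03, 1.25 and 1.65 CPM untreated and at 1.75, 1.43, 1.63 and 1.20 CPM with vincristine. All 4 vincristine libraries of LZK KO lay above every other library, and the double KO groups overlapped. The difference was -3.10 ± 0.40 on the log2 scale (SE, adjusted p = 3.76e-05), with effects of 3.32 ± 0.25 in LZK KO against 0.22 ± 0.29 in double KO. The untreated levels of the 2 lines differed by 0.36.

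HRK (ENSG00000135116.9, chromosome 12, 116856144 to 116881441), a BH3-only activator of apoptosis in neurons, showed the same form at higher counts. Its level was 14.9, 13.9, 16.9 and 11.6 CPM in untreated LZK KO and 85.5, 95.1, 103 and 102 CPM with vincristine. In double KO it was 3.17, 3.88, 3.16 and 3.30 CPM untreated and 5.13, 3.37, 4.56 and 3.50 CPM with vincristine. The LZK KO groups did not overlap and the double KO groups did. The difference was -2.48 ± 0.20 (adjusted p = 1.73e-08). HRK was already lower in untreated double KO, by -2.08 on the log2 scale.

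EIF2AK3 (PERK, ENSG00000172071.11, chromosome 2, 88556741 to 88627576), the endoplasmic reticulum kinase that phosphorylates eIF2alpha, had the smallest adjusted p among the named genes. It rose from 38.5, 41.1, 39.8 and 40.9 CPM to 126, 138, 139 and 135 CPM in LZK KO. Double KO libraries read 35.8, 31.4, 33.6 and 36.5 CPM untreated and at 33.1, 31.0, 31.3 and 33.1 CPM with vincristine. The spread within each group was small, and only the LZK KO groups were apart. The difference was -1.84 ± 0.10 (adjusted p = 1.42e-12), from untreated levels that differed by -0.23.

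EGR1, an immediate early transcription factor, was read at 6.48, 7.6, 5.94 and 5.15 CPM in untreated LZK KO and at 23.5, 31.6, 31.8 and 27.8 CPM with vincristine. In double KO its libraries lay at 6.45, 4.83, 3.66 and 3.66 CPM untreated and at 4.81, 4.30, 5.59 and 4.52 CPM with vincristine. The untreated levels of the 2 lines overlapped, although untreated double KO was called lower, by -0.44 (adjusted p = 0.0441). The treated LZK KO libraries lay above all others. The difference was -2.14 ± 0.23 (adjusted p = 2.62e-06).

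ARID5A, an RNA-binding protein that stabilises inflammatory transcripts, was at most 0.824 CPM in any double KO library, and at 5.96, 7.27, 6.83 and 8.54 CPM in LZK KO with vincristine. Its difference of -2.91 ± 0.52 (adjusted p = 0.00226) rests on few counts in double KO. GPR50, an orphan receptor related to the melatonin receptors, differed by -1.94 ± 0.28, and PAPPA, a metalloproteinase that cleaves an insulin-like growth factor binding protein, by -1.72 ± 0.14. GPR50 was already lower in untreated double KO, by -1.08. PAPPA rose in LZK KO from 9.38, 12.5, 10.8 and 9.84 CPM to 28.6, 30.8, 34.2 and 31.8 CPM. In double KO it was already at 23.5, 25.8, 28.9 and 27.5 CPM untreated and stood at 22.6, 25.3, 24.1 and 22.6 CPM with vincristine. PAPPA is thus a member whose treated levels were closer between the lines than its untreated levels.

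ERF, an ETS-family repressor, and TTC39A shared that form, with untreated levels higher in double KO by 0.91 and 1.14 and differences of -1.60 ± 0.21 and -1.57 ± 0.32. CSRNP1 (-1.68 ± 0.39) and FILIP1 (-1.66 ± 0.40) were called, but each call was lost in 5 of the 16 fits that left out a library. The long non-coding RNAs AL137003.2 (-1.86 ± 0.35) and AC027031.2 (-1.61 ± 0.17) completed the 15 lowest. Untreated levels were apart by 0.60 (CSRNP1), -1.39 (FILIP1), -0.89 (AL137003.2) and -1.55 (AC027031.2). In all 15 the LZK KO groups did not overlap (effects of 1.31 to 3.32), and in 0 of the 15 were the double KO groups apart (effects of -0.31 to 0.39). The share of all genes whose treated and untreated groups were apart within a line was not counted. Between the treated lines, the groups were apart for 6643 of the 16956 genes tested. These 15 were picked for their difference, so the pattern describes them and is not a test.

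**Figure D2:**
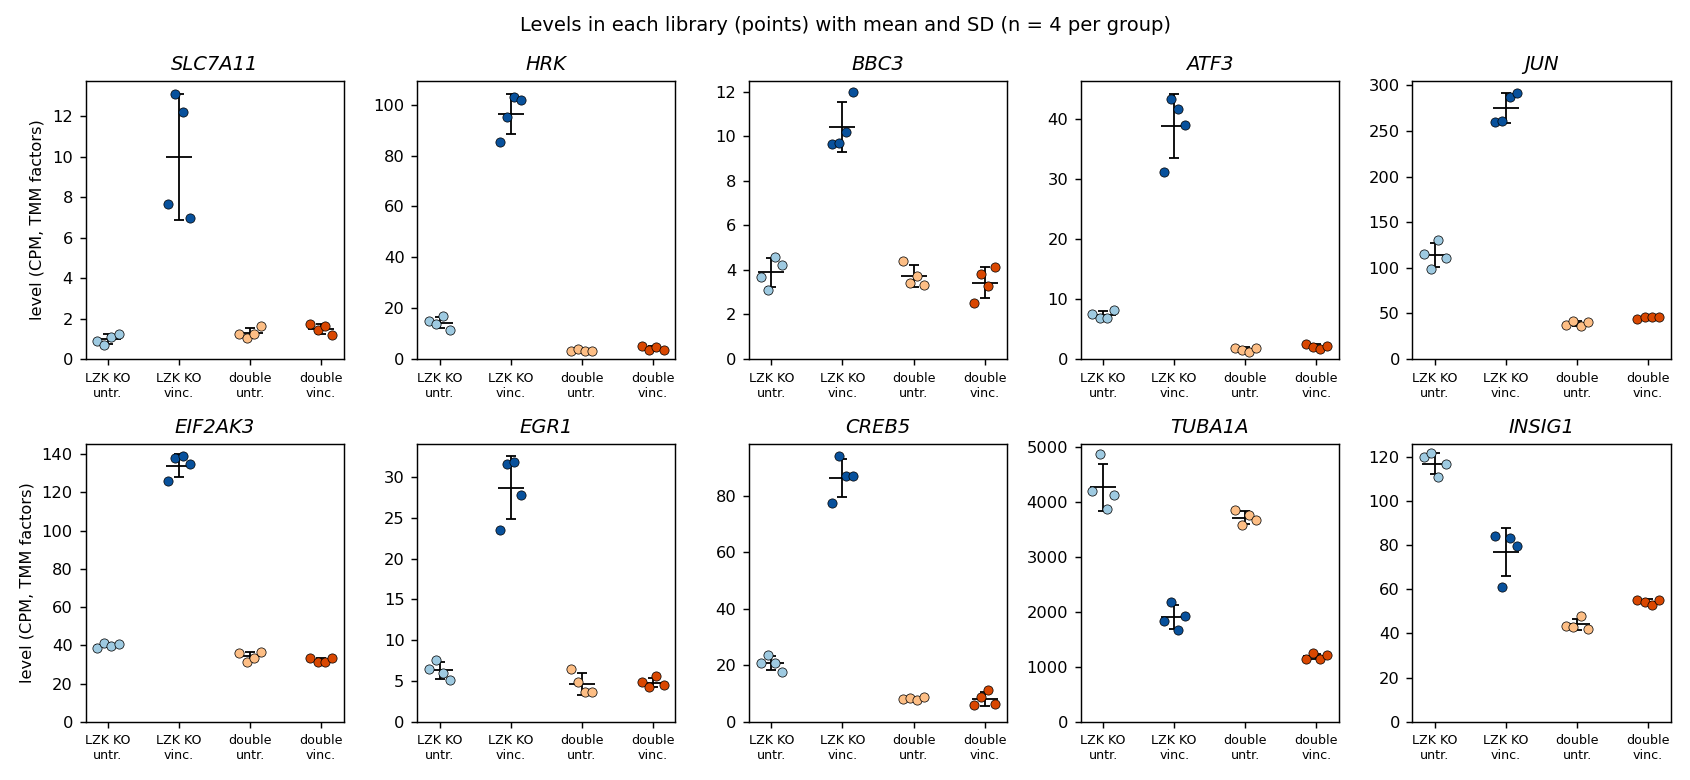
Level (CPM with TMM factors) in each of the 16 libraries for 10 genes; points are libraries, bars the mean and SD of 4. For SLC7A11, HRK, BBC3, ATF3, JUN, EIF2AK3, EGR1 and CREB5 the LZK KO vincristine libraries stand above all others; TUBA1A falls in both lines, and INSIG1 falls in LZK KO and lies higher with vincristine in double KO.

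The gene lists here and below were chosen with earlier results of these data known, so their shares describe them and carry no test. Among the kinases and scaffolds of the JNK pathway, the RNA of 22 of 23 members was not called for the difference, and the list's median was -0.13 against -0.004 for all genes tested. The member called was MAPK8IP1 (JIP1), a scaffold that binds DLK and JNK, at -0.47 ± 0.12 (adjusted p = 0.0397). Its call was lost in 12 of the 16 fits that left out a library and with all groups in 1 fit, and the share of all genes called lower was 1.09%. The JNK genes themselves gave 0.18 (MAPK8), 0.13 (MAPK9) and 0.06 (MAPK10).

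The phosphatases that switch MAP kinases off included 2 lower calls among 9 measured members, beside 1.09% of all genes called lower, with a median of -0.36 against -0.004 for all genes. DUSP8, which is selective for JNK and p38, rose in LZK KO from 85.1, 79.6, 96.2 and 77.7 CPM to 140, 136, 151 and 196 CPM. In double KO it was at 25.9, 31.3, 25.8 and 26.6 CPM untreated and at 25.4, 26.9, 25.7 and 28.4 CPM with vincristine. Its difference was -0.92 ± 0.14 (adjusted p = 0.000421), with untreated levels apart by -1.63, and the call was lost with all groups in 1 fit. DUSP16, another JNK phosphatase, differed by -1.54 ± 0.26 (adjusted p = 0.00115). DUSP16 was read at 78.5, 97.0, 96.3 and 95.9 CPM in LZK KO with vincristine and at no more than 2.06 CPM in double KO. The untreated lines differed by -4.14 for DUSP16, a gap that only STMN4 (-4.29) exceeded among the named genes. DUSP1 (-0.45, adjusted p = 0.133) and DUSP10 (-0.36, adjusted p = 0.199) did not pass.

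Of the AP-1, ATF and CREB factors, which include the nuclear targets of JNK, 5 of 17 measured members were called lower and 0 higher, beside 1.09% of all genes lower and 0.177% higher. Without the untreated LZK KO replicate 3 this was 6, and without LZK KO vincristine replicate 4 it was 4. The list's median was -0.34. JUN (ENSG00000177606.6, chromosome 1, 58780788 to 58784327) was read at 115, 99.2, 131 and 111 CPM in untreated LZK KO and at 260, 261, 287 and 292 CPM with vincristine. Double KO libraries read 37.8, 41.3, 36.2 and 40.8 CPM untreated and at 43.9, 45.9, 45.7 and 46.2 CPM with vincristine. JUN is the named AP-1 gene whose double KO groups were also apart, and every vincristine library lay above every untreated one in both lines. The effect was 1.27 ± 0.07 in LZK KO and 0.22 ± 0.08 in double KO, where its adjusted p was 0.665. The difference was -1.05 ± 0.11 (adjusted p = 9.03e-07).

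ATF3, a stress-induced factor that pairs with JUN, was read at 7.6, 6.77, 6.85 and 8.13 CPM untreated and 31.3, 43.5, 41.8 and 39.0 CPM with vincristine in LZK KO. It stayed at or below 2.51 CPM in all 8 double KO libraries. The difference was -2.03 ± 0.26 (adjusted p = 3.04e-05), with untreated levels apart by -2.19. CREB5, a CRE-binding factor related to ATF2, differed by -2.07 ± 0.19 (adjusted p = 3.56e-07), with untreated levels apart by -1.35. JDP2 (-1.34 ± 0.33) and JUND (-0.57 ± 0.13) were also called, with calls lost in 8 and 9 of the 16 leave-one-out fits and both with all groups in 1 fit. Their untreated levels were apart by -0.06 (JDP2) and -1.52 (JUND). The RNA of ATF2 (0.18), JUNB (0.15) and FOS (0.12) was not called. Among early response factors, EGR1 and IER2 (-0.88 ± 0.14, adjusted p = 0.000751) were called lower of 11 measured, beside 1.09% of all genes, and the median was -0.38.

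The integrated stress response had the lowest median of the 16 lists, at -0.57, with 10 of its 18 members called lower (55.6%) and 0 higher, beside 1.09% of all genes lower. This response runs from eIF2alpha kinases through the factor ATF4 to genes of amino acid supply and stress. Without the untreated LZK KO replicate 3 the count was 11, and without LZK KO vincristine replicate 4 it was 9. This list too was chosen with earlier results of these data known, so the counts describe it only. ATF4 RNA itself was not called (-0.22 ± 0.10, adjusted p = 0.414). The called members were SLC7A11, the amino acid transporters SLC7A5 (-0.52) and SLC3A2 (-0.43), the serine and one-carbon enzymes PHGDH (-0.65) and SHMT2 (-0.61), the glutathione-degrading enzyme CHAC1 (-1.31), the mTORC1 inhibitors SESN2 (-0.99) and DDIT4 (-0.62), and the transcription factors DDIT3 (CHOP, -1.03) and CEBPB (-1.38).

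PHGDH, the entry enzyme of serine synthesis, was read at 18.8, 18.8, 20.7 and 20.4 CPM untreated and at 27.4, 31.6, 32.3 and 36.8 CPM with vincristine in LZK KO. The double KO values were 27.1, 26.5, 28.9 and 28.4 CPM and at 30.4, 29.8, 25.2 and 29.1 CPM. The vincristine groups of the lines overlapped, and the difference (-0.65 ± 0.13, adjusted p = 0.00493) came with untreated levels 0.49 higher in double KO. SESN2 was read at 10.6, 7.6, 8.13 and 7.78 CPM and at 13.0, 19.5, 18.7 and 16.5 CPM in LZK KO, against 9.73, 9.42, 9.98 and 7.79 CPM and 7.54, 8.81, 9.89 and 10.5 CPM in double KO. SESN2 therefore began level in both lines and was apart only with vincristine (-0.99 ± 0.20, adjusted p = 0.00697).

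Calls for DDIT3, SLC7A5, SLC3A2 and CEBPB were less firm, being lost in 13, 12, 10 and 8 of the 16 leave-one-out fits. With all groups in 1 fit those of DDIT3, SLC7A5 and CEBPB were lost, and with no filter that of SLC3A2. DDIT3 lay at 17.6, 26.1, 15.9 and 12.4 CPM in LZK KO with vincristine, against 9.83, 7.88, 7.40 and 7.93 CPM in double KO. SLC7A11, CHAC1, PHGDH, SHMT2 and SESN2 were called in each of the 23 alternative fits. The endoplasmic reticulum chaperones, which belong to another branch of the unfolded protein response, had a median of 0.17. HSPA5 (BiP) was the member of these 15 that was called, and it was higher (0.35 ± 0.08, adjusted p = 0.0212), beside 0.177% of all genes called higher. This call was lost in 5 of the 16 leave-one-out fits, with no filter and with replicate number as a block. HSPA5 fell in LZK KO from 183, 165, 182 and 176 CPM to 138, 131, 139 and 139 CPM, and stood at 148, 158, 160 and 145 CPM and 147, 153, 147 and 156 CPM in double KO.

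**Figure D3:**
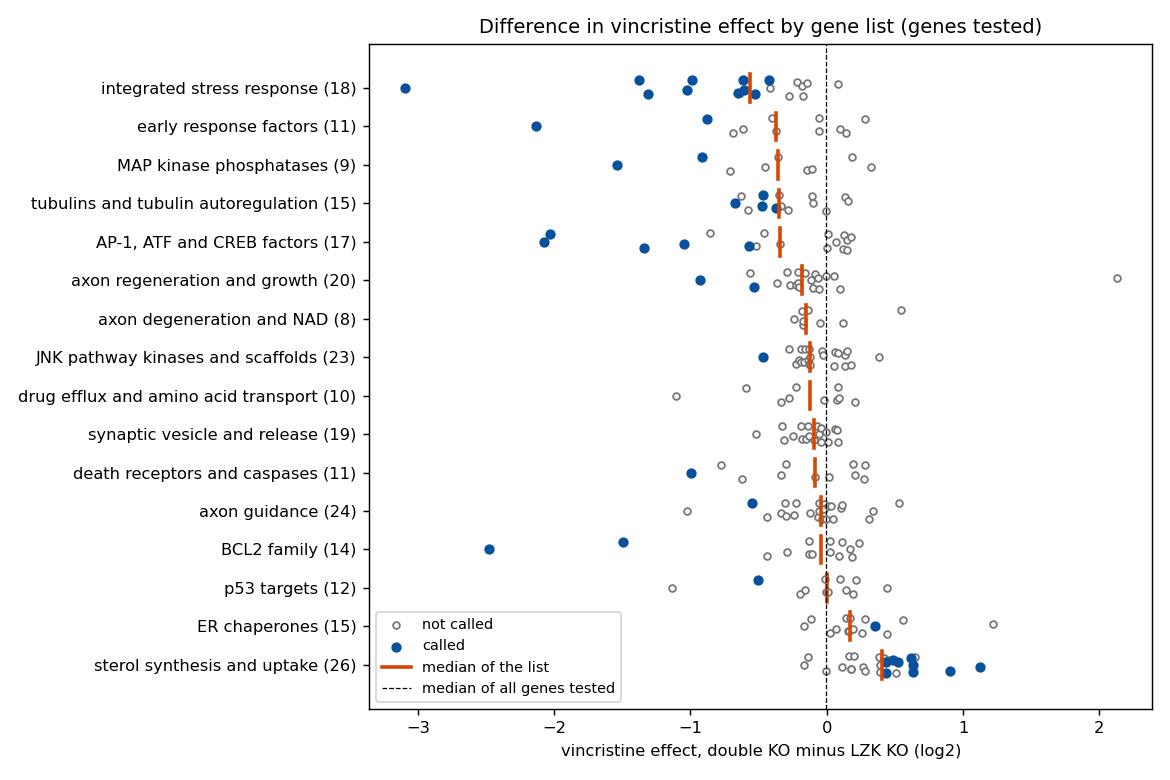
Difference in vincristine effect (double KO minus LZK KO, log2) of each measured member of 16 gene lists. Filled points are called, orange bars are list medians, and the dashed line is the median of all genes tested. The integrated stress response has its median at -0.57 and sterol synthesis and uptake, a list chosen after its values were seen, at 0.41. The other lists were chosen with earlier results of these data known.

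In the BCL2 family, 2 of 14 measured members were called lower, beside 1.09% of all genes, and both are BH3-only killers. Beside HRK this was BBC3 (PUMA, ENSG00000105327.17), which was read at 3.69, 3.09, 4.57 and 4.23 CPM untreated and 9.64, 9.69, 10.2 and 12.0 CPM with vincristine in LZK KO. The double KO values were 4.4, 3.41, 3.74 and 3.30 CPM and at 2.51, 3.8, 3.27 and 4.15 CPM. The untreated groups and treated double KO overlapped, and treated LZK KO lay above them (-1.49 ± 0.24, adjusted p = 0.000535). BCL2L11 (BIM, -0.44, adjusted p = 0.269), BCL2 (-0.13), MCL1 (0.09) and BAX (0.24) did not pass, and the family's median was -0.04. Of 12 p53 targets, BTG2 was called lower (-0.51 ± 0.12), beside the same 1.09% of all genes, and in 8 of the 16 leave-one-out fits no longer. CDKN1A (-1.13, adjusted p = 0.665) and MDM2 (0.22) were not.

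Genes of axon growth gave 2 lower calls of 20, beside 1.09% of all genes called lower, and a median of -0.18. GADD45A, a stress gene that is raised after nerve injury, differed by -0.93 ± 0.16 (adjusted p = 0.00117), and STMN4, a stathmin that binds tubulin dimers, by -0.53 ± 0.11 (adjusted p = 0.0064). STMN4 differed strongly between the lines before treatment, at 250, 272, 249 and 255 CPM in LZK KO against 13.4, 12.0, 12.9 and 14.0 CPM in double KO. With vincristine it stood at 467, 547, 491 and 472 CPM and at 15.3, 18.7, 16.7 and 18.6 CPM, with every treated library above the untreated ones in both lines. GAP43 (-0.21) and SOX11 (-0.20) were not called. Of 24 axon guidance genes, EFNB2, an ephrin ligand, was called lower (-0.55 ± 0.10, adjusted p = 0.00164), 1 call beside the same 1.09% of all genes. Without the untreated LZK KO replicate 3, 4 of these 24 were called lower. The lists of axon degeneration and NAD genes (8 measured, median -0.16), of drug efflux and amino acid transport (10, median -0.12) and of synaptic vesicle genes (19, median -0.09) held 0 calls by edgeR and by DESeq2, with 1, 4 and 2 members lower at an unadjusted p under 0.05. With voom, 1 synaptic vesicle gene was called lower. Without the untreated LZK KO replicate 3, edgeR called 1 gene lower in the drug efflux and amino acid list and 1 in the synaptic vesicle list.

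The tubulin genes were the group that vincristine still lowered without either kinase. Free tubulin is known to trigger decay of tubulin mRNA, and drugs that release dimers from microtubules lower these transcripts. Of the 11 genes called in double KO, 9 were tubulin genes, and the other two were AL662797.1, which lies antisense to TUBB, and HYDIN, a cilium gene. The same number, 9 of 13 measured tubulin genes, was called lower in LZK KO, beside 1.59% of all genes called lower there. TUBA1A (ENSG00000167552.13, chromosome 12, 49184796 to 49189324), the main alpha tubulin of young neurons, fell in LZK KO from 4210, 4880, 3870 and 4130 CPM to 1830, 2180, 1680 and 1930 CPM. In double KO it fell from 3860, 3590, 3760 and 3670 CPM to 1150, 1250, 1150 and 1220 CPM. The groups were apart in both lines, and the treated double KO libraries lay below the treated LZK KO ones.

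The vincristine effect was lower in double KO than in LZK KO for 12 of the 13 tubulin genes, TUBA8 by only -0.002 ± 0.83. For 4 of them the difference was called, beside 1.09% of all genes called lower. In the list of 15 that also holds TTC5 and SCAPER, 5 were called lower without the untreated LZK KO replicate 3. Without LZK KO vincristine replicate 4, 3 of the 15 were. TUBB2B, a beta tubulin of developing neurons, fell by 0.78 ± 0.06 in LZK KO and by 1.45 ± 0.06 in double KO on the log2 scale, a difference of -0.67 ± 0.09 (adjusted p = 4.14e-05). It went from 814, 727, 874 and 814 CPM to 467, 477, 427 and 512 CPM in LZK KO and from 564, 560, 551 and 563 CPM to 193, 213, 200 and 214 CPM in double KO. TUBA1A differed by -0.48 ± 0.10 (adjusted p = 0.0084), TUBB4A by -0.47 ± 0.11 and TUBB2A by -0.38 ± 0.10. In WT and DLK KO, fitted apart, the effects were -1.91 and -1.67 for TUBA1A and -1.07 and -1.05 for TUBB2B. They were -1.82 and -1.36 for TUBB4A and -1.51 and -1.42 for TUBB2A. For these 4 genes the fall was thus smallest in LZK KO, and why was not tested. With all groups in 1 fit the calls of TUBA1A, TUBB4A and TUBB2A were lost. Those of TUBB4A and TUBB2A were also lost in 8 and 13 of the 16 leave-one-out fits, and TUBB (-0.38, adjusted p = 0.053) and TUBG1 (-0.11, adjusted p = 0.836) did not pass. TTC5 (0.14) and SCAPER (-0.10), factors of tubulin mRNA decay, were not called. Tubulin genes are near-identical in places, and how reads shared between copies were counted is not given in the sources used here, so values of single copies are uncertain.

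**Figure D4:**
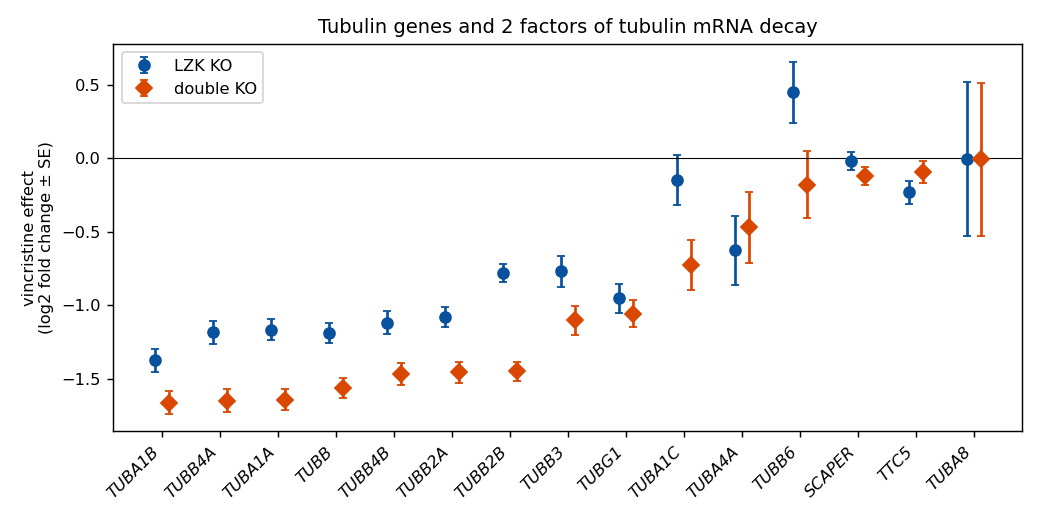
Vincristine effect (log2 fold change ± SE) of 13 tubulin genes and of TTC5 and SCAPER in LZK KO (circles) and double KO (diamonds), ordered by the double KO effect. Most diamonds lie below their circles, with the widest called gap at TUBB2B.

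The genes called higher included 9 of cholesterol supply, whose effects were below 0 in LZK KO and above 0 in double KO, and 5 of these were among the 10 highest. STARD4, a carrier that moves cholesterol between membranes, was read at 74.2, 76.2, 52.9 and 72.0 CPM untreated and at 40.7, 35.3, 39.4 and 33.6 CPM with vincristine in LZK KO. The double KO values were 21.3, 20.8, 22.5 and 18.0 CPM untreated and at 24.7, 24.4, 23.9 and 24.7 CPM with vincristine. Both pairs of groups were apart, in opposite directions, although the effect in double KO was not called (0.24 ± 0.11, adjusted p = 0.691). The difference was 1.12 ± 0.14 (adjusted p = 3.17e-05), with untreated levels apart by -1.73. INSIG1, which holds the sterol sensor in the endoplasmic reticulum, went from 120, 122, 111 and 117 CPM to 84.0, 60.9, 83.4 and 79.8 CPM in LZK KO and from 43.3, 43.1, 48.0 and 42.0 CPM to 55.3, 54.4, 53.0 and 55.1 CPM in double KO. Its difference was 0.91 ± 0.11 (adjusted p = 3.01e-05).

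SC5D, a sterol desaturase, differed by 0.63 ± 0.13 and ERG28 by 0.62 ± 0.14. To describe the group, 27 genes of sterol synthesis and uptake were listed after these values had been seen, so the list carries no test. Of the 26 measured, 9 were called higher and 0 lower, beside 0.177% of all genes called higher. Without the untreated LZK KO replicate 3 the higher calls were 11, without LZK KO vincristine replicate 4 they were 12, and without both 14. Called members also included HMGCS1 (0.52), ACAT2 (0.49), SQLE (0.44) and FDFT1 (0.44), and with all groups in 1 fit the calls of SC5D, HMGCS1 and ACAT2 were lost. The list's median effect was -0.21 in LZK KO against 0.18 in double KO. In untreated cells 25 of the 26 were called lower in double KO than in LZK KO, beside 20.7% of all genes called lower there, with a median of -1.0, so the double KO started from a lower level. The regulator SREBF2 (-0.14) was not called.

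Outside sterol genes, the 10 highest held TFRC, the transferrin receptor for iron uptake (0.64 ± 0.14), VWC2L (0.77 ± 0.18), DCPS, the scavenger decapping enzyme (1.07 ± 0.27), TMEM50B (0.61 ± 0.15) and Z99129.3 (1.26 ± 0.30). In that order, their untreated levels were apart by 1.05, -0.33, -1.28, -0.55 and -1.555. Calls of DCPS, TMEM50B and Z99129.3 were lost in 12, 11 and 8 of the 16 leave-one-out fits, those of VWC2L in 5, of TFRC and ERG28 in 3. With no filter DCPS, TMEM50B and Z99129.3 were not called, with all groups in 1 fit TMEM50B was not, and with voom TFRC was not. Of TFRC the levels were 52.9, 66.9, 49.4 and 57.6 CPM and 55.2, 51.4, 43.3 and 43.3 CPM in LZK KO, and 119, 115, 126 and 109 CPM and 157, 186, 146 and 136 CPM in double KO. The LZK KO groups of TFRC overlapped, and the double KO groups did not. Z99129.3 lies within the span of PKIB, so its reads may be shared with that gene.

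The genes were next set beside neurons that share no library with the 16. In WT neurons, 1879 of 16141 genes (11.6%) were called higher with vincristine and 1650 (10.2%) lower. Of the 183 genes called lower that were measured in WT, 155 (84.7%) were called higher there, which is 8.79% of the WT list measured here. Of the 30 genes called higher, 29 (96.7%) were called lower in WT, which is 1.77% of that list. The median WT effect was 1.02 for the genes called lower and -0.995 for those called higher (-0.009 over all genes). Read from the WT side, of 467 genes raised at least 2-fold in WT, 93 were called lower for the difference and 0 higher, beside 1.09% and 0.177% of all genes, and their median effect was 0.46 in LZK KO against 0.01 in double KO. The WT count changed with the WT libraries, being 2245 of both directions without untreated replicate 3 and 6358 without vincristine replicate 4, against 3529.

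In the second experiment, with CRISPR interference in place of knockouts, the vincristine effect with ATF2 gRNA was compared with that of Control gRNA. The effect was called lower for 2080 of 19874 genes (10.5%) and higher for 2181 (11.0%). Libraries of the second experiment held 38.9 to 88.4 M counts, with a median of 53.5 M. Their depth was thus above that of the 16 libraries, and the numbers of calls in the 2 experiments are not comparable. Of 183 genes called lower without DLK, 156 (85.2%) were also called lower with ATF2 gRNA, 8.28% of that list, and of 29 called higher, 26 (89.7%) were higher, 1.20% of that list. With JUN gRNA, 1747 of 19552 genes (8.94%) were called lower and 1749 (8.95%) higher. There 134 of 183 (73.2%) were lower, 8.08% of that list, and 20 of 29 (69.0%) were higher, 1.16% of that list. The median over the genes called lower was -0.83 with ATF2 gRNA and -0.48 with JUN gRNA. The ATF2 and JUN comparisons share their control libraries, so the 2 shares are not set against each other.

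Values of single members follow, and the ATF2 and JUN gRNA differences were not tested against each other. For HRK the ATF2 gRNA difference was -1.83 and the JUN gRNA difference -0.95, and for EIF2AK3 they were -1.72 and -1.06. For EGR1 they were -2.78 and -0.29 (adjusted p = 0.234), the latter not called. CHAC1 (-0.004, adjusted p = 0.985) and PHGDH (0.07, adjusted p = 0.594) were not called with ATF2 gRNA, although both were called lower without DLK. Of the sterol genes, INSIG1 gave 1.03 with ATF2 gRNA and 0.92 with JUN gRNA. TUBB2B was called lower with ATF2 gRNA (-0.45) and was not called with JUN gRNA (-0.01, adjusted p = 0.969).

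The mirror comparison asks whether DLK without LZK and LZK without DLK gave the same response. With the double KO as common end point, it reduces to the vincristine effect in LZK KO minus that in DLK KO, a comparison that shares the LZK KO libraries with the one above. It was called for 20 of 16747 genes (0.119%), 12 lower and 8 higher; 1524 were under 0.05 unadjusted. EGR1 had an effect of 2.20 in LZK KO and of 0.78 in DLK KO (difference 1.41 ± 0.18, adjusted p = 0.000324). SLC7A11 had effects of 3.32 and 1.63 (1.69 ± 0.35), ARID5A of 2.96 and 0.83 (2.13 ± 0.41) and PAPPA of 1.57 and 0.84 (0.73 ± 0.14), each with an adjusted p of 0.0426. For these genes the response was larger in the line that kept DLK than in the line that kept LZK. JUN went the other way, with 1.27 in LZK KO and 2.03 in DLK KO (-0.76 ± 0.11, adjusted p = 0.00248). TUBB and TUBA1B were also called, with effects of -1.18 and -1.37 in LZK KO against -1.73 and -2.02 in DLK KO. HRK (2.75 and 2.25), ATF3 (2.41 and 2.15), CREB5 (2.06 and 2.02) and EIF2AK3 (1.75 and 1.57) were not called between the single knockouts. The count of 20 is not stable, being 3 to 9 when any of 14 of its 16 libraries was left out (all but LZK KO untreated replicate 2 and vincristine replicate 4) and 53 without LZK KO vincristine replicate 4. In each fit with 3 calls, 2 were lower and 1 higher, so at most 1 of EGR1, SLC7A11, ARID5A and PAPPA was called there.

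**Figure D5:**
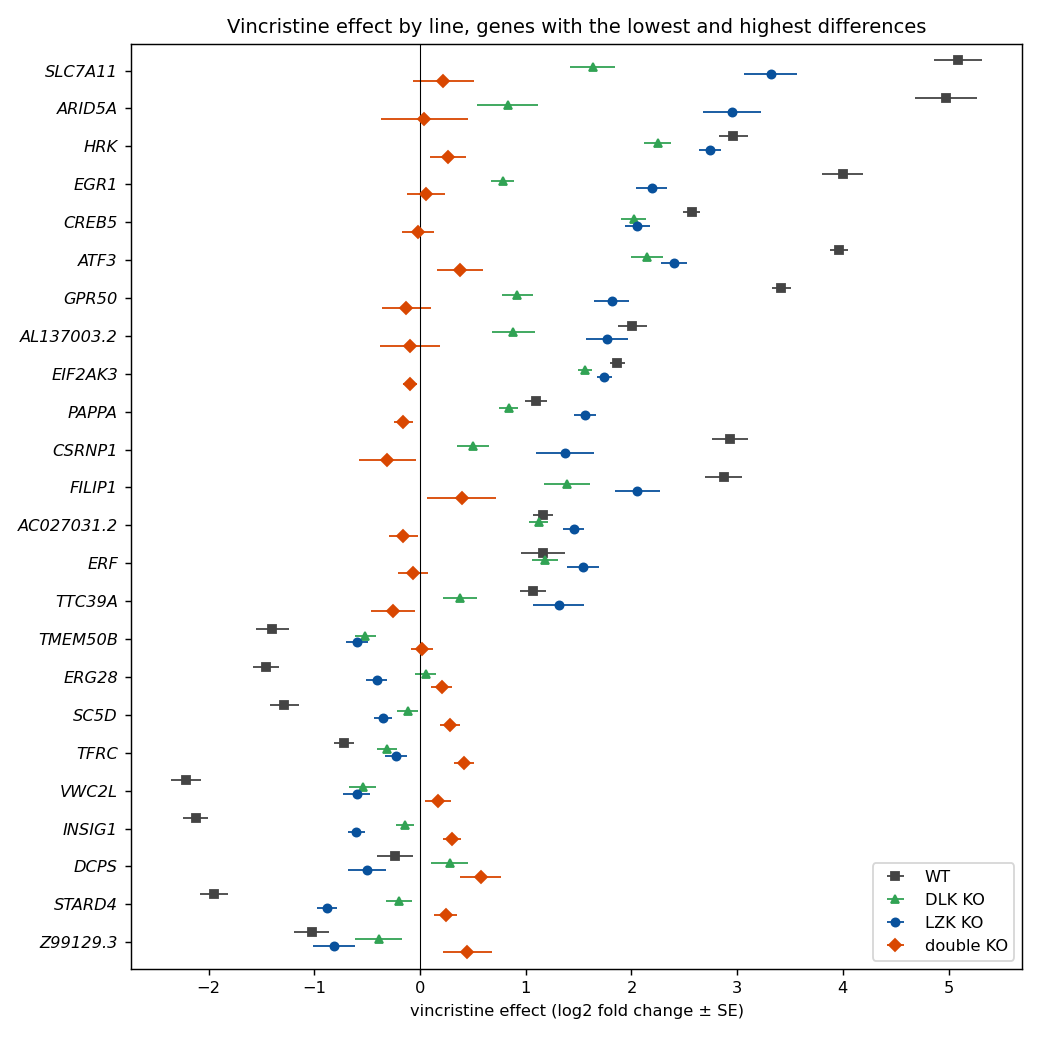
Vincristine effect (log2 fold change ± SE) by line (WT, the DLK and LZK single knockouts, double KO) for the 15 genes with the lowest and 9 of the 10 with the highest difference between double KO and LZK KO. In the upper 15 rows the double KO diamonds lie near 0 while the other 3 lines lie to the right; WT and DLK KO were fitted apart from the 16 libraries.

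Promoters of the genes called lower were searched for letters that the factors at the end of the cascade can bind. The CRE octamer TGACGTCA can be bound by ATF2-type dimers and also by other factors. This octamer and the AP-1 heptamer TGANTCA were searched on both strands in RefSeq windows (GRCh38.p14) of 250 bases before to 50 bases after the start. A TGACGTCA holds no TGANTCA. Of 137 called-lower genes with a promoter in the table, 12 (8.76%) held TGACGTCA, against 360 of 10853 tested genes (3.32%) and 540 of all 27305 promoters (1.98%). TGANTCA was in 8 of 137 (5.84%), against 4.14% of tested genes and 7.76% of all promoters. Of 21 genes called higher, 0 held TGACGTCA and 2 (9.52%) TGANTCA. None of the 12 lowest genes that have a promoter in the table held either motif. A single window was searched for each gene, so any other start of a gene was not covered. The 4 promoters shown were chosen after the search, as the lowest genes with TGACGTCA, and capitals mark it; they show where it lies against the start.

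DUSP8 holds the octamer at -118 and -74 bases from its start, FSTL4 at -28, PNMA3 at -177 and S1PR2 at -250, the window's edge. DUSP8 (difference -0.92) is described above. FSTL4, a secreted follistatin-like protein, differed by -0.94 ± 0.21, PNMA3 by -0.87 ± 0.20, and S1PR2, a receptor for sphingosine 1-phosphate, by -0.77 ± 0.18, with adjusted p-values of 0.0199, 0.0199 and 0.0272.
FSTL4 (chr5:133612492-133612791, minus strand): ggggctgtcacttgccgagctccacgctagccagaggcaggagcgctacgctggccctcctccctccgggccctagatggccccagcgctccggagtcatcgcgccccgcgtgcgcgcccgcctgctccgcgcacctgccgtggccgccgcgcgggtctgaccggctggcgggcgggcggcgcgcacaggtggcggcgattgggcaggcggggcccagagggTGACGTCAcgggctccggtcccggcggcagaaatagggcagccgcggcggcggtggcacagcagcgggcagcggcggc
DUSP8 (chr11:1572222-1572521, minus strand): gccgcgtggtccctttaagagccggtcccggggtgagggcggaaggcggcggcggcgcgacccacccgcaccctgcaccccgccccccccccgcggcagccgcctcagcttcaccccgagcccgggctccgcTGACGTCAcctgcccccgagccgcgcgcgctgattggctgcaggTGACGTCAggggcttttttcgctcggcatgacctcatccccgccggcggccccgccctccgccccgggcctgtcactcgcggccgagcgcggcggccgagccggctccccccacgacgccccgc
PNMA3 (chrX:153056220-153056519, plus strand): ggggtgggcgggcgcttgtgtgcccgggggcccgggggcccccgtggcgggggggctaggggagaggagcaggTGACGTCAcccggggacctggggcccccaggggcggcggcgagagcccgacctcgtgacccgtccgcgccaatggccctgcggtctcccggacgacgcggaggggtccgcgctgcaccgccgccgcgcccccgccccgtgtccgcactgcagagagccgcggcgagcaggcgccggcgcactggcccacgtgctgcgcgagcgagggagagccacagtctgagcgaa
S1PR2 (chr19:10231282-10231581, minus strand): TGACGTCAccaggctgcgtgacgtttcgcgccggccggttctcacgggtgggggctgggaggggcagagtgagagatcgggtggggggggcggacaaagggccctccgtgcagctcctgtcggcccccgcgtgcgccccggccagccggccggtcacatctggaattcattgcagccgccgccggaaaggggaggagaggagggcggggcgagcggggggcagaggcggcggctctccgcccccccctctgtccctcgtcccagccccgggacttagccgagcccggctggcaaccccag
A match in these letters is a description of the window and no measurement of binding.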

How the data were processed

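The values are raw read counts per gene, as deposited by the authors in a table for each experiment. Per the submitters' processing notes, GRCh38, cutadapt 3.4, STAR and featureCounts of Subread 2.0.1 were used. The labels' protocols name poly(A) selection and a stranded kit. The strand setting, the annotation release and the handling of duplicates and shared reads are not given in the sources used here, so a gene and an overlapping gene on the other strand may share reads. Of 58440 identifiers, 56992 had the same version and start in GENCODE 29, and 58320 had a symbol. Column names identified the sample in every case, and 0 columns were unused.

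The 4 groups were fitted together with edgeR 4.0.16 in R 4.3.3 (filterByExpr by group, TMM factors, 1 mean per group, robust glmQLFit and glmQLFTest, 2-sided). A gene was called at a Benjamini-Hochberg adjusted p under 0.05 over all genes of that comparison. WT (8 libraries), LZK KO with DLK KO (16), ATF2 gRNA with Control gRNA (19) and JUN gRNA with Control gRNA (20) were fitted likewise on their own. SE is the log2 fold change over the square root of F. Named are MAP3K12 and MAP3K13, the 15 lowest and 10 highest differences among called genes with a mean log2 CPM of at least 1, every called list member and up to 4 uncalled members of a list; some of these genes are not reported here. Members and lists were chosen with earlier results of these data known.

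On simulated counts for the difference (16736 genes), 82.5% of 200 genes changed 2-fold were called with 8 false calls, and 0 were called where none was changed. The 200 were drawn from genes with a mean log2 CPM of at least 1. Deviations of whole libraries, as in LZK KO, were not simulated, so these rates may not hold for the data. Alternatives were DESeq2 1.42.0, RLE factors, no filter, a mean of 1 CPM, the replicate block, all groups in 1 fit, limma 3.58.1 voom with quality weights, and leaving out each library. Leaving out 2 LZK KO libraries together was added after seeing the data. Figures were drawn with matplotlib 3.10.9.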

Additional observations from a re-analysis of the deposited data

Results flagged for a closer look

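The vincristine effect differed between double KO and LZK KO for 214 genes, by the test of the difference itself. Between the single knockouts, the effect in LZK KO minus that in DLK KO was called for the named genes JUN (-0.76), PAPPA (0.727), EGR1 (1.414), SLC7A11 (1.687) and ARID5A (2.126) on the log2 scale. They belong to the 20 calls that fell to as few as 3 with a library left out, so most of these calls are not firm.

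In 8 of 224 sets of a reported named gene and a group of 4 libraries (3.57%), 1 library lay far from the other three; chance flags about 1 in 20 groups. FILIP1 stood at 1.64 CPM in untreated LZK KO replicate 3 (others 3.32 to 3.57). In LZK KO with vincristine, DUSP16 stood at 78.5 CPM in replicate 1 (others 95.9 to 97.0) and DDIT4 at 19.3 CPM in replicate 4 (others at 22.3). Replicate 2 of the same group was low for HSPA5 (131 CPM, others 138 to 139) and SQLE (194 CPM, others 230 to 236). DUSP8 stood at 31.3 CPM in untreated double KO replicate 2 (others 25.8 to 26.6). In double KO with vincristine, Z99129.3 stood at 2.75 CPM in replicate 3 (others 1.86 to 2.01) and EFNB2 at 109 CPM in replicate 4 (others 119 to 121).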

How the results depend on the processing

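Of 58 named genes, 33 kept their side of the threshold in all 23 alternatives, 25 lost their call in some, and 0 changed sign. The 214 calls were 283 with DESeq2, 254 with no filter, 167 with all groups in 1 fit and 409 with voom and quality weights. Without LZK KO untreated replicate 3 and vincristine replicate 4 together they were 453. Leaving out each library gave 144 to 455 calls for the difference, 482 to 1078 for the LZK KO effect, 10 to 13 for the double KO effect, 6513 to 7405 untreated and 6598 to 7598 with vincristine between the lines, 2245 to 6358 in WT, 3 to 53 for LZK KO minus DLK KO, 3838 to 4684 for ATF2 gRNA and 3021 to 3785 for JUN gRNA. The 11 genes of the double KO effect became 18 with DESeq2, 22 with no filter and 112 with voom. The 3529 WT calls became 5498 with all groups in 1 fit, and the 20 of LZK KO minus DLK KO became 32 with DESeq2, 70 with no filter and 12 with all groups in 1 fit. The cause of these changes was not tested.

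Replicate numbers did not pair the samples: of 24 pairs of same-numbered libraries, 3 correlated above 0.1 (range -0.20 to 0.13). With the replicate block the difference was called for 175 genes, the WT effect for 2052 and LZK KO minus DLK KO for 5. It lost 10 named calls: FILIP1, Z99129.3, DCPS, TMEM50B, JDP2, DDIT3, SLC7A5, SLC3A2, TUBB2A and HSPA5.

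Named calls were lost, by the untreated LZK KO replicate left out: for CSRNP1, Z99129.3, DCPS, TMEM50B, MAPK8IP1, JUND, JDP2, DDIT3, SLC7A5, SLC3A2, TUBB2A, TUBB4A, BTG2 and HSPA5 (replicate 1); Z99129.3, DCPS, TFRC, TMEM50B, MAPK8IP1, DDIT3, SLC7A5, CEBPB and TUBB2A (2); DDIT3 (3); and DCPS, ERG28, TMEM50B, MAPK8IP1, JDP2, SLC7A5, SLC3A2, CEBPB, TUBB2A, TUBB4A, BTG2 and ACAT2 (4). By other libraries, at most 19 were lost (double KO untreated replicate 4) and at least 3 (LZK KO vincristine replicate 2). ARID5A, SLC7A11, DUSP16 and ATF3 had few counts in double KO. How far depth limited their precision there was not tested, and the parts of counting error and of the spread between libraries were not separated.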
